A study of Mus musculus with 14 samples.

Results

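The imprinted Meg3 and Rian region on mouse chromosome 12 carries 9 miRNA hairpins in a row, miR-770, miR-673, miR-493, miR-337, miR-540, miR-665, miR-341, miR-1188 and miR-370. All arms of these hairpins with a row in the deposited tables were taken by name, which gave 17 mature miRNAs of the 1123 measured. They were followed in dorsal root ganglia (DRG, clusters of sensory neuron cell bodies beside the spinal cord) of the inbred strains C57BL/6 and CAST/Ei. The 14 libraries were 5 of naive C57BL/6 ganglia, 3 of C57BL/6 after sciatic nerve injury, 3 of naive CAST/Ei and 3 of CAST/Ei after injury. The injury was a 30 s crush of the left sciatic nerve in males aged 8 to 10 weeks. Age and sex are stated for the injured animals only, and the time from crush to dissection is not given in the sources used here. No transgene or deletion is named for any group, and the groups share dissociation of the ganglia before RNA extraction. The comparisons ask for the strain difference in each state, naive or injured, and for the injury response in each strain.

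The domain between Dlk1 and Dio3 is imprinted. The paternal chromosome expresses protein-coding genes such as Dlk1 and Rtl1, and the maternal chromosome expresses the non-coding RNAs Meg3 (also called Gtl2), an antisense transcript of Rtl1, Rian and Mirg. These maternal RNAs lie on 1 strand and are thought to form a long transcription unit, from which clusters of small RNAs are cut. A miRNA hairpin yields an arm from its 5′ side (5p) and an arm from its 3′ side (3p). Each arm selects target messages mainly through its seed, bases 2 to 8 of the mature strand. Many miRNAs of the domain are abundant in neurons, and miR-431 from the Rtl1 antisense cluster is known in studies of axon growth after nerve injury.

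Positions are those of RefSeq on GRCm38.p6 and matched the GENCODE M21 annotation of GRCm38 for each of the 9 hairpins, all on the plus strand. The miR-770 hairpin (chr12:109563692-109563785) lay within Meg3 (chr12:109541001-109571726), spanned by 4 Meg3 transcripts, in 1 of which it overlapped an exon. The miR-673 hairpin (chr12:109571990-109572080) began 264 bases past the annotated end of Meg3. miR-493 (chr12:109580233-109580315), miR-337 (chr12:109585789-109585885), miR-540 (chr12:109586080-109586146) and miR-665 (chr12:109586314-109586407) lay between genes, on the strand opposite to Rtl1 (chr12:109589193-109600330). The hairpins of miR-341 (chr12:109611500-109611595), miR-1188 (chr12:109611822-109611941) and miR-370 (chr12:109618258-109618336) lay in introns of Rian (chr12:109603940-109661716). Only 226 bases separated miR-341 from miR-1188, whereas miR-370 began 6316 bases further on and miR-665 ended 25092 bases before miR-341.

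The sequences on which the results turn are printed 5′ to 3′ with the seed in capitals, from RefSeq, in which the names of the 17 members all matched. The first 3 arms were lower in CAST/Ei in both states, the next 3 were called lower in naive CAST/Ei only and in a less stable way, and the last 2 were higher after injury with the strains averaged.
miR-341-3p: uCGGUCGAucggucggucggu
miR-1188-5p: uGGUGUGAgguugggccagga
miR-673-5p: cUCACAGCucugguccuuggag
miR-673-3p: uCCGGGGCugaguucugugcacc
miR-770-3p: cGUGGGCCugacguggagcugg
miR-370-3p: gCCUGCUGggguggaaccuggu
miR-493-5p: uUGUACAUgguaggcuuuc
miR-493-3p: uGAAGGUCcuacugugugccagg

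No seed was shared between members. Among the 918 measured miRNAs with a RefSeq sequence, 15 of the 17 members had a seed of their own. miR-673-5p shared the seed UCACAGC with miR-6985-3p, and miR-370-5p shared AGGUCAC with miR-1193-3p. miR-341-3p is built from a repeated tetranucleotide, with the letters CGGU 4 times in 21 bases. Its hairpin is shown because the repeat runs through both of its sides, with CGGU in capitals.
miR-341 hairpin: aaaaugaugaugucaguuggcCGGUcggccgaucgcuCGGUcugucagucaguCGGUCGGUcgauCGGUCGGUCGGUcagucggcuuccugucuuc
CGGU, searched on the hairpin strand, occurred 7 times in these 96 bases. No other of the 1005 RefSeq mouse hairpins held as many, and 120 of them (11.9%) held it at all. These are reference sequences. The CAST/Ei sequence of the hairpins was not analysed here, and its effect on how CAST/Ei reads were counted was not tested.

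The libraries held 4007706 to 15642360 reads and 949 to 1084 miRNAs with at least 1 read each, and levels are given as CPM, read counts divided by the authors' scaled library sizes, in which 1 read is worth 0.0674 to 0.253 CPM. For the label of the tissue, 5 sensory neuron miRNAs (the miR-183 cluster, miR-124-3p and miR-138-5p) were summed, which gave between 95969 and 161052 CPM in the 14 libraries. This sum was highest in naive C57BL/6 libraries 4 and 5, at 153739 and 161052 CPM, so it cannot show whether a library held other cells as well. Libraries 4 and 5 of naive C57BL/6 were unlike the rest. They held 260520 and 81351 CPM of miR-218-5p, a miRNA of motor neurons, against 3479 to 17984 CPM in the other 12. The 2 miRNAs of myelinating glia summed to 6736 and 7121 CPM in them, against 15062 to 43003 CPM in the others. The 6 epithelial miRNAs summed to 1496 and 306 CPM, against 34.0 to 163 CPM, and the hepatocyte miR-122-5p stood at 661 and 369 CPM, against 8.63 to 39.8 CPM. Calls that rest on the naive C57BL/6 group are therefore also given without these 2 libraries, and the part of other cells in them was not tested. Naive C57BL/6 libraries 1 to 3 were not uniform either. The 4 erythrocyte miRNAs summed to as much as 26343 CPM among them, against at most 14500 CPM in the other groups. C57BL/6 naive 3 held the fewest reads. Of single libraries, leaving it out moved the calls most, from 71 of 638 to 147 of 634 miRNAs for strain in naive ganglia. For injury in C57BL/6 it moved them from 20 to 70. In bulk ganglia, fewer cells of a type and less RNA per cell cannot be told apart.

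The 17 members summed to between 1809 and 3202 CPM, or 0.178% to 0.353% of a library. A read covers a whole mature miRNA, so these CPM levels were not divided by length. miR-337-3p was highest, with a mean level of 964 CPM over the 14 libraries, followed by miR-337-5p at 488 CPM and miR-665-3p at 431 CPM. The last pair did not differ beyond their spread, with 249 to 852 CPM for miR-337-5p and 309 to 601 CPM for miR-665-3p. miR-493-5p (242 CPM), miR-770-3p (134), miR-540-3p (120), miR-341-3p (77.7) and miR-540-5p (56.7) followed in mean level, and the ranges of neighbours in this order overlapped. The mean of miR-341-3p was the level of neither strain, with group means of 106 and 183 CPM in naive and injured C57BL/6 and 1.63 and 2.11 CPM in CAST/Ei. The remaining arms averaged under 31 CPM, down to miR-665-5p at 0.718 CPM and miR-1188-3p at 0.551 CPM. Those last 2 never reached 5 CPM (miR-665-5p 0 to 1.49 CPM, miR-1188-3p 0 to 1.88 CPM), so 15 of the 17 arms entered the tests, which required 5 CPM in at least 3 libraries. miR-341-3p, miR-1188-5p, miR-673-5p and miR-673-3p reached 5 CPM in C57BL/6 libraries only, in 8, 8, 3 and 3 of them. Passing that way favours a strain difference, so counts over the tested arms are descriptions.

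**Figure D1:**
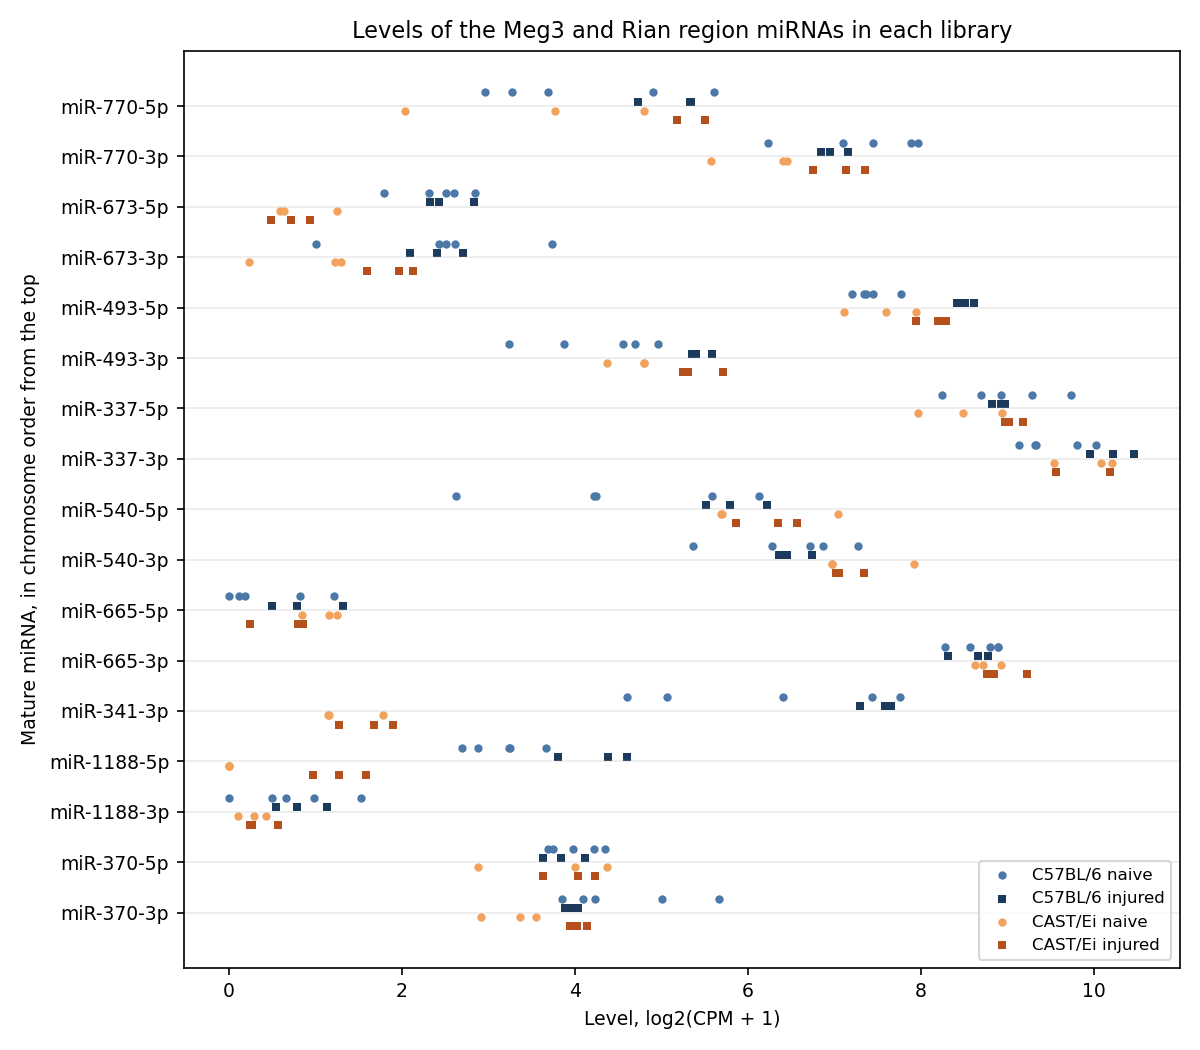
Level of each of the 17 mature miRNAs in each of the 14 libraries as log2(CPM + 1), in chromosome order from the top, with naive libraries as circles, injured ones as squares, C57BL/6 in blue and CAST/Ei in orange. The orange points of miR-341-3p and miR-1188-5p stand apart to the left of the blue ones, while those of miR-665-3p and miR-370-5p lie among them.

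Between the naive strains, miR-341-3p, miR-1188-5p, miR-673-5p, miR-673-3p, miR-770-3p and miR-370-3p were lower in CAST/Ei, and no member was higher. These were 6 of the 15 arms tested, where 5.17% of the 638 miRNAs tested were lower and 11.1% differed in either direction (limma, adjusted p under 0.05). In injured ganglia 3 of the 15 were lower in CAST/Ei, miR-341-3p, miR-1188-5p and miR-673-5p, against 2.51% of all miRNAs lower and 3.29% called in either direction. With both states averaged, the same 3 arms were lower, where 4.39% of all miRNAs were lower and 7.99% were called. These 3 arms and miR-673-3p passed the filter through C57BL/6 libraries only, which favours such a call, so the counts are descriptions. The members' median log2 change was -0.52 in naive and 0.07 in injured ganglia, beside 0.12 and -0.06 over the 638 miRNAs. Counted by libraries alone, 4 arms lay wholly lower in naive CAST/Ei (miR-341-3p, miR-1188-5p, miR-673-5p and miR-370-3p), where 7.05% of all miRNAs did. Without naive libraries 4 and 5, 3 of 13 tested members did (the miR-673 arms were then not tested), where 9.57% of 627 miRNAs did, and the members' naive median was -0.21, beside 0.12. In injured ganglia 4 lay wholly lower (the first 3 of miR-341-3p, miR-1188-5p, miR-673-5p and miR-370-3p, and miR-493-5p), where 20.5% of all miRNAs did. There 2 lay wholly higher (miR-337-5p and miR-540-3p), where 15.4% did. For miR-337-5p the margin was narrow, 504.4 CPM in CAST/Ei injured 2 against 504.1 CPM in C57BL/6 injured 1. The other 9 arms tested in naive ganglia, from miR-493, miR-337, miR-540, miR-665-3p, miR-770-5p and miR-370-5p, were not called. The epithelial miRNAs summed to 124 to 163 CPM in naive CAST/Ei. In naive C57BL/6 they summed to 34.0 to 44.7 CPM in libraries 1 to 3 and to 1496 and 306 CPM in libraries 4 and 5. Of the 5 leukocyte miRNAs, 1 was called lower in CAST/Ei in each state. The 2 glial miRNAs summed to 6736 to 33991 CPM in naive C57BL/6 and 34804 to 39800 CPM in naive CAST/Ei. In injured ganglia their sums were 34073 to 43003 CPM in C57BL/6 and 28775 to 30286 CPM in CAST/Ei. Muscle (8868 to 9575 against 6359 to 7393 CPM) and erythrocyte sums (11102 to 14500 against 7593 to 9103 CPM) also lay lower in injured CAST/Ei. All other list sums overlapped between strains, the epithelial sum in naive ganglia only through C57BL/6 libraries 4 and 5. No other miRNA of the 8 cell type lists was called by strain in either state, and the part of these cells in the strain differences was not tested.

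miR-341-3p, the repeat-built arm from the first Rian intron hairpin, was read at 172, 216, 83.6, 32.5 and 23.3 CPM in naive C57BL/6 libraries 1 to 5 and at 157, 192 and 201 CPM in the injured ones. In CAST/Ei it stood at 1.23, 2.45 and 1.20 CPM in naive and 2.19, 2.73 and 1.41 CPM in injured libraries. Every C57BL/6 library lay above every CAST/Ei library, and within naive C57BL/6 the libraries 4 and 5 were the lowest. The mean level was 64.9-fold lower in naive CAST/Ei, with 46 pooled reads against 4661, a ratio per scaled library size of 77.1 (95% interval 57.7 to 105, counting error only). In injured ganglia it was 86.7-fold lower, with 62 reads against 5648. The log2 change was -4.89 ± 0.58 (SE) in naive ganglia (adjusted p = 2.99e-05) and -5.90 ± 0.65 in injured ones (adjusted p = 1.62e-05), in each case the lowest of the 638 miRNAs tested. Without naive libraries 4 and 5 the naive change was -5.84 (adjusted p = 4.32e-08) and the change averaged over states -5.87. Each CAST/Ei library held at least 7 reads, above the floor of 3, which covers counting error only. The origin of these few reads was not tested.

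miR-1188-5p, whose hairpin starts 226 bases after that of miR-341, was read at 5.48, 8.42, 6.33, 8.50 and 11.7 CPM in naive C57BL/6 and at 12.9, 19.9 and 23.2 CPM in injured C57BL/6. None of the 3 naive CAST/Ei libraries held a read of it, and the injured CAST/Ei libraries held 2.01, 0.964 and 1.41 CPM. Strains did not overlap in either state. Against the floor of 3 reads over the 3 naive CAST/Ei libraries (0.105 CPM), its level was at least 77.4-fold lower there, with 0 reads against 305. In injured ganglia it was 12.8-fold lower, with 49 reads against 579. The log2 changes, which understate the fold at these low levels, were -3.14 ± 0.29 (adjusted p = 2.77e-06) and -2.98 ± 0.33 (adjusted p = 1.62e-05). The naive change was -2.94 without naive libraries 4 and 5 (adjusted p = 1.45e-05). The opposite arm miR-1188-3p was too low to test, with 30 and 24 reads in naive and injured C57BL/6 against 5 and 8 in CAST/Ei. Its read ratio of C57BL/6 to CAST/Ei was 4.57 (95% interval 1.75 to 15.1) in naive and 3.12 (1.36 to 8.04) in injured ganglia, for counting error only.

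miR-673-5p, from just past the end of Meg3, was a low-abundance arm with 2.47 to 6.21 CPM in the 8 C57BL/6 libraries. In CAST/Ei it was read at 0.507, 0.556 and 1.38 CPM in naive and 0.913, 0.643 and 0.404 CPM in injured libraries, below every C57BL/6 library. Its mean was 5.52-fold lower in naive and 7.39-fold lower in injured CAST/Ei. The log2 changes were -1.59 ± 0.30 (adjusted p = 0.00301) and -1.81 ± 0.33 (adjusted p = 0.00319). It rested on 20 pooled reads in each CAST/Ei group, and it fell below the filter when naive libraries 4 and 5 were left out, so it was then not tested. The opposite arm miR-673-3p stood at 4.38, 5.10, 1.01, 12.3 and 4.70 CPM in naive C57BL/6 and 1.45, 1.33 and 0.172 CPM in naive CAST/Ei, where the groups overlapped. Its naive strain change of -1.54 ± 0.47 (adjusted p = 0.0474) was lost without 10 of the 11 single libraries that could be left out and tested, with adjusted p from 0.0589 to 0.183. This arm was not tested without naive libraries 4 and 5 together. The 10 libraries were C57BL/6 naive 1 and 5, C57BL/6 injured 1 and 3 and all 6 CAST/Ei libraries.

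**Figure D2:**
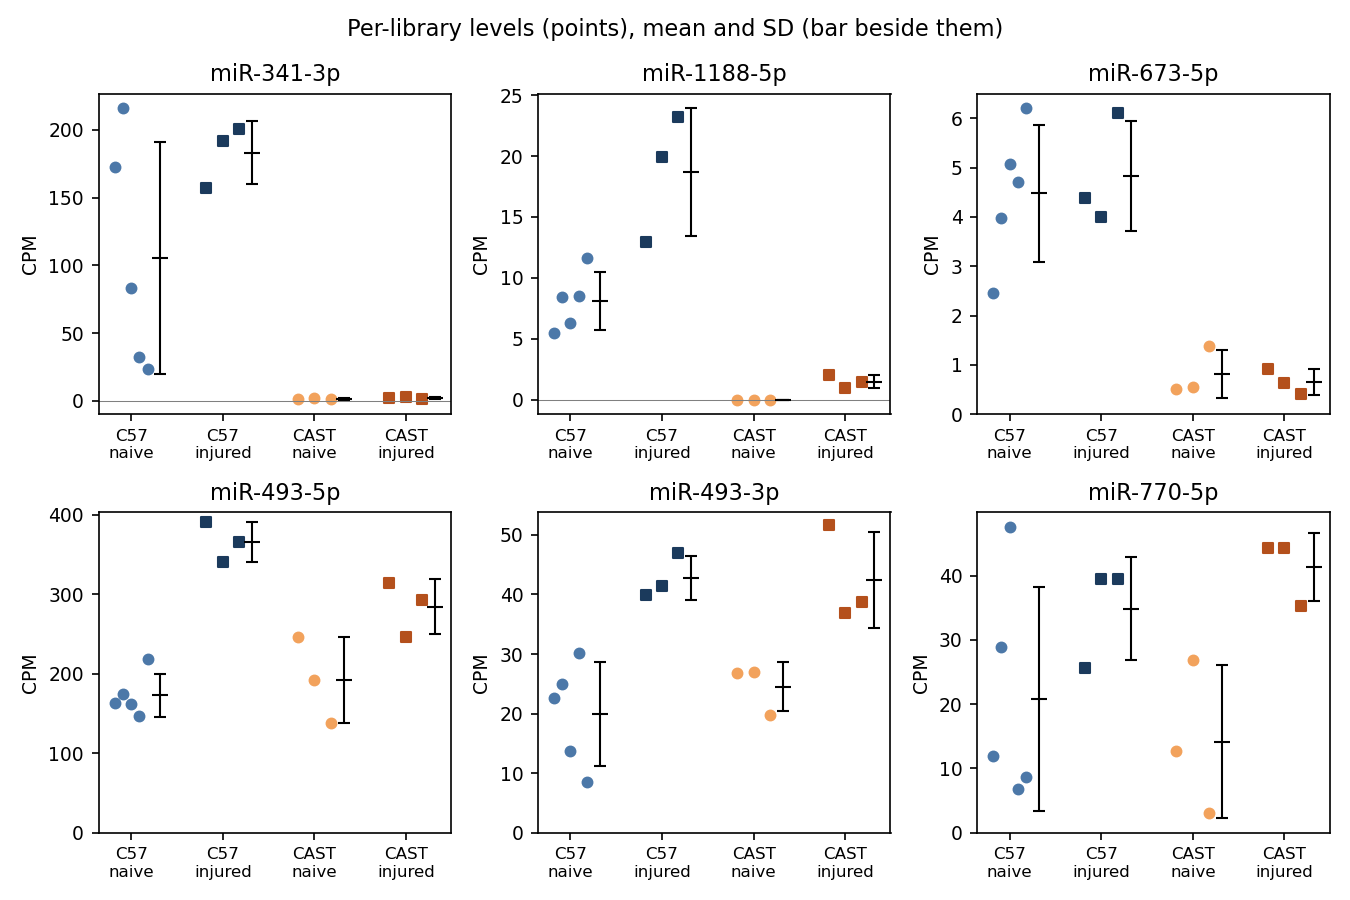
CPM of 6 arms in each library (points), with the mean and SD of the group beside them; axes start at or near 0 and differ between arms. The CAST/Ei points of miR-341-3p, miR-1188-5p and miR-673-5p lie below all C57BL/6 points, and the injured points of miR-493-5p, miR-493-3p and miR-1188-5p lie above the naive points of their own strain.

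miR-770-3p and miR-370-3p, from the first and the last hairpin of the group, were also lower in naive CAST/Ei, and less firmly. miR-770-3p was read at 173, 137, 74.5, 249 and 236 CPM in naive C57BL/6 and 83.9, 86.6 and 46.8 CPM in naive CAST/Ei, with C57BL/6 naive 3 inside the CAST/Ei range. Its change of -1.18 ± 0.36 (adjusted p = 0.0475) became -0.78 without naive libraries 4 and 5, which held its highest values (adjusted p = 0.116). With the replicate number as a block, those 2 libraries have no partner and no weight, so the block is not a separate check. The change was -0.78 there as well and was not called (adjusted p = 0.0761). The block moved the calls between naive strains from 71 to 111 of the 638 miRNAs, and from 6 to 5 of the 15 arms. Leaving out the 2 libraries without a block gave 89 calls of 627. Leaving out a single library ended the call for 12 of the 14, every library except C57BL/6 naive 2 and 3, with adjusted p from 0.0604 to 0.189. miR-370-3p was read at 17.8, 16.04, 13.4, 50.0 and 31.2 CPM in naive C57BL/6 and 6.52, 10.7 and 9.28 CPM in naive CAST/Ei. These groups did not overlap, and the change was -1.30 ± 0.36 (adjusted p = 0.0319). Without libraries 4 and 5, again its highest, the change was -0.79 (adjusted p = 0.0415), and without C57BL/6 naive 5 or any single naive CAST/Ei library adjusted p rose to between 0.0510 and 0.115. In injured ganglia neither arm was called, with log2 strain changes of 0.10 (95% interval -0.76 to 0.95) and 0.07 (-0.80 to 0.93).

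The middle hairpins gave no strain call. miR-540-5p was the arm with the highest strain change in naive ganglia, at 17.9, 47.2, 68.9, 5.17 and 17.7 CPM in C57BL/6 and 51.0, 131 and 50.6 CPM in CAST/Ei. Its change of 1.58 ± 0.60 did not pass (adjusted p = 0.0882), although it passed without C57BL/6 naive 3 (adjusted p = 0.0216), and it was 0.82 without the low libraries 4 and 5. miR-665-3p, among the most abundant arms, had a strain change of 0.07 (95% interval -0.41 to 0.56) in naive and 0.36 (-0.18 to 0.90) in injured ganglia. For miR-337-3p these were 0.42 (-0.15 to 0.99) and -0.24 (-0.88 to 0.40). Its opposite-strand partner miR-3544-5p overlaps it by 21 bases and was measured at 177 to 832 CPM. Whether the counting used strand is not given in the sources used here, so reads of these 2 cannot be told apart with certainty, and the same holds for miR-337-5p and miR-3544-3p (17 bases, 1.10 to 5.26 CPM).

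No tested arm of the other maternally expressed clusters of the domain had a strain change as large as those of miR-341-3p and miR-1188-5p. Of the 12 Rtl1 antisense arms, all tested, 2 were higher in naive CAST/Ei and none lower. Of 64 tested arms of the 73 between miR-379 and miR-410, 3 were higher and 1 lower, beside 38 and 33 of all 638 miRNAs. In injured ganglia no arm of either cluster was called, beside 3.29% of all miRNAs. The strongest of these naive changes was miR-376b-5p, at 232 ± 145 CPM (SD, n = 5) in C57BL/6 and 845 ± 110 CPM (n = 3) in CAST/Ei, a log2 change of 2.10 (adjusted p = 0.00706). Averaged over states, changes within the Rtl1 antisense cluster ran from -0.37 to 0.68 and within the miR-379 to miR-410 cluster from -0.65 to 1.20, against -5.40 ± 0.43 for miR-341-3p, -3.06 ± 0.22 for miR-1188-5p and -1.70 ± 0.22 for miR-673-5p. miR-370, the next hairpin in Rian, was not among the arms called over both states.

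**Figure D3:**
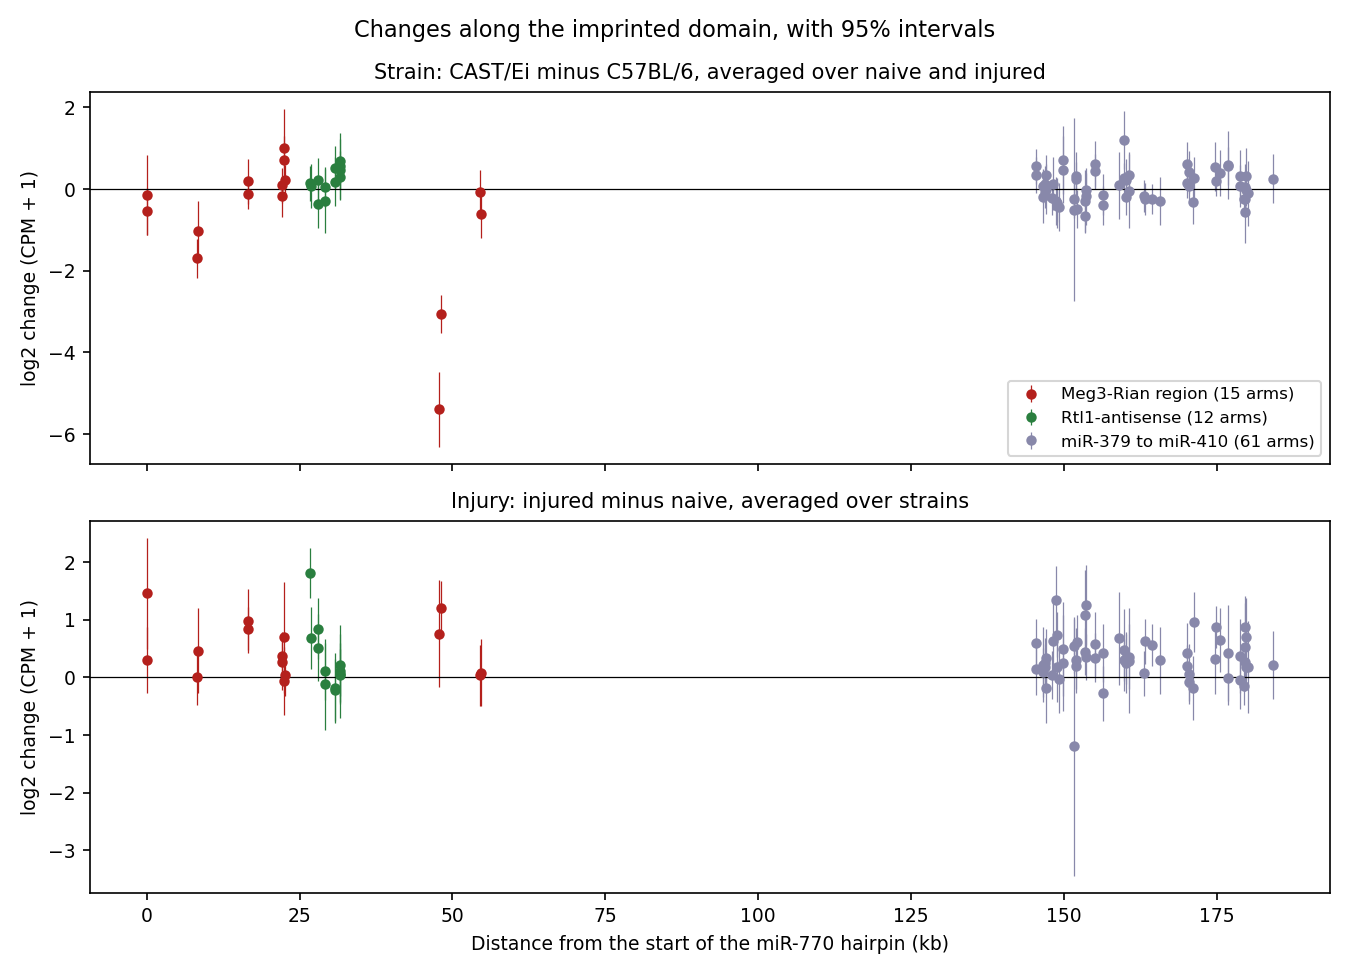
Log2 change with 95% interval of each tested arm against the distance of its start from the miR-770 hairpin in kb, for strain (top) and injury (bottom), in red for the Meg3 and Rian region, in green for the Rtl1 antisense cluster and in grey for the 61 arms from miR-379 to miR-410 with a RefSeq position. The lowest red points of the upper panel are the neighbours miR-341-3p (-5.40) and miR-1188-5p (-3.06). Next lowest are the red points of miR-673-5p (-1.70) and miR-673-3p (-1.02), further left. The highest green point of the lower panel is miR-431-5p.

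After sciatic nerve crush, both arms of miR-493 and miR-1188-5p were higher, and no member was lower. Averaged over strains these were 3 of 15 arms, where 4.23% of all miRNAs tested were called and 3.13% were higher. Without naive libraries 4 and 5 the 3 arms were called too, with averaged changes of 0.86 for miR-493-5p (adjusted p = 0.00226), 0.92 for miR-493-3p (adjusted p = 0.0054) and 1.30 for miR-1188-5p (adjusted p = 0.00171). There 55 of 627 miRNAs were called in either direction. Within C57BL/6, 1 of 15 arms was called, miR-493-5p, where 3.13% of all miRNAs were called and 2.35% were higher. Within CAST/Ei none of the 15 was called by limma, beside 1.10% of all miRNAs, with 4 of the 15 and 41 of the 638 at an unadjusted p under 0.05. Of the 15 arms, edgeR and DESeq2 on recovered reads each called miR-1188-5p alone, among 8 and 16 of the 638 miRNAs. The difference between the strains' responses (the interaction) was called by limma for none of the 15 arms and none of the 638 miRNAs, with 2 arms and 52 miRNAs at an unadjusted p under 0.05. edgeR and DESeq2 each called 1 arm, miR-1188-5p, which has 0 reads in naive CAST/Ei, among 1 and 9 of the 638 miRNAs, and edgeR without C57BL/6 injured library 1 called none of the 638.

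Markers of cell types differed between the states as well. The 5 sensory neuron miRNAs summed to 127937 to 161052 CPM in naive and 99982 to 105724 CPM in injured C57BL/6, and to 120554 to 136550 CPM in naive and 95969 to 104135 CPM in injured CAST/Ei. The 2 miRNAs of myelinating glia summed to 6736 to 33991 CPM in naive and 34073 to 43003 CPM in injured C57BL/6, and to 34804 to 39800 CPM in naive and 28775 to 30286 CPM in injured CAST/Ei. The injured libraries thus lay below the naive ones for the neuronal sum in both strains, and for the glial sum they lay above in C57BL/6 and below in CAST/Ei. In CAST/Ei the sums of the 4 muscle miRNAs (8788 to 11363 CPM naive, 6359 to 7393 injured), the 4 erythrocyte miRNAs (9587 to 13361, then 7593 to 9103) and the 6 epithelial miRNAs (124 to 163, then 63.3 to 76.7) also lay lower after injury without overlap. The 5 leukocyte miRNAs summed to 3963 to 6572 CPM in naive and 5609 to 7470 CPM in injured C57BL/6, and to 2764 to 4959 and 4747 to 5745 CPM in CAST/Ei, where the states overlapped. Of single markers, limma called 2 of 4 muscle miRNAs lower and 1 of 5 leukocyte miRNAs higher after injury in C57BL/6 and none of the 8 lists in CAST/Ei. None of the listed miRNAs was at 0 in all libraries, and the part of these cells in the injury changes was not tested.

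miR-493-5p was read at 164, 174, 162, 147 and 218 CPM in naive and 391, 340.5 and 365 CPM in injured C57BL/6. In CAST/Ei it stood at 246, 192 and 137 CPM in naive and 314, 246 and 293 CPM in injured libraries. Injured libraries lay above naive ones in both strains, in CAST/Ei by a narrow margin (245.9 against 245.6 CPM). The mean rose 2.11-fold in C57BL/6, a log2 change of 1.09 ± 0.23 (adjusted p = 0.0172). That call was lost when any single injured C57BL/6 library was left out, with changes of 1.04 to 1.14 and adjusted p from 0.0930 to 0.0942, and it held without naive libraries 4 and 5 (1.13, adjusted p = 0.00718). In CAST/Ei the change was 0.60 ± 0.26 (adjusted p = 0.665), and the difference between the responses was -0.49 ± 0.35 (adjusted p = 0.581). Averaged over strains it rose by 0.84 ± 0.18 (adjusted p = 0.0103), a call that held in each of 25 alternative settings.

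miR-493-3p, the lesser arm of that hairpin, was read at 22.6, 24.9, 13.7, 30.1 and 8.47 CPM in naive and 39.8, 41.4 and 46.9 CPM in injured C57BL/6. In CAST/Ei the levels were 26.9, 26.9 and 19.8 CPM in naive and 51.7, 36.9 and 38.7 CPM in injured libraries. The states did not overlap in either strain. Averaged over strains the log2 change was 0.97 ± 0.26 (adjusted p = 0.0456). It was no longer called without any 1 of 11 libraries, all but C57BL/6 naive 2, 4 and 5, with adjusted p from 0.0509 to 0.162. In C57BL/6 alone the change was 1.18 ± 0.35 (adjusted p = 0.0790), called without naive library 4 (adjusted p = 0.0349) and without naive libraries 4 and 5 (1.07, adjusted p = 0.0291).

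miR-1188-5p was higher after injury in both strains, from 8.08 ± 2.39 CPM (SD, n = 5) to 18.7 ± 5.25 CPM (n = 3) in C57BL/6 and from 0 reads to 1.46 ± 0.524 CPM (n = 3) in CAST/Ei, with no overlap in either. In CAST/Ei the 49 injured reads put the level at least 14.6-fold above the naive group's floor. The averaged log2 change was 1.20 ± 0.22 (adjusted p = 0.00372) and was called in each of 25 alternative settings. Within a strain the changes of 1.12 ± 0.29 in C57BL/6 (adjusted p = 0.0504) and 1.28 ± 0.33 in CAST/Ei (adjusted p = 0.0924) did not pass. In C57BL/6 it passed without naive library 3 (adjusted p = 0.0397), without naive library 5 (0.0215) and without naive libraries 4 and 5 together (0.0240). In CAST/Ei it passed without C57BL/6 naive 5 (adjusted p = 0.0475) and without C57BL/6 naive 4 and 5 (0.0398). C57BL/6 libraries bear on this contrast because 1 variance per miRNA was estimated over the 4 groups.

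The other arms gave no call for injury. Counted by libraries alone, 8 of the 15 arms had every injured CAST/Ei library above every naive one, where 10.2% of all miRNAs did, namely miR-770-5p, miR-770-3p, miR-673-3p, miR-493-5p, miR-493-3p, miR-337-5p, miR-1188-5p and miR-370-3p. None lay wholly below, where 16.5% of all miRNAs did. In C57BL/6 the arms wholly above were 3, miR-493-5p, miR-493-3p and miR-1188-5p, where 8.62% of all miRNAs were, and the same 3 of 13 without naive libraries 4 and 5, where 14.5% of 627 miRNAs were. The members' median log2 change was 0.60 in CAST/Ei, beside -0.09 over all miRNAs, and 0.11 in C57BL/6, beside 0.12. The C57BL/6 median was 0.32 without naive libraries 4 and 5, beside 0.14.

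miR-770-5p had the highest averaged injury change, at 11.9, 28.9, 47.6, 6.78 and 8.65 CPM in naive and 25.6, 39.5 and 39.4 CPM in injured C57BL/6. CAST/Ei libraries held 12.7, 26.8 and 3.09 CPM in naive and 44.4, 44.3 and 35.2 CPM in injured ganglia, where the states did not overlap. The averaged change of 1.46 ± 0.46 did not pass (adjusted p = 0.0917), and it passed without C57BL/6 naive 3 (adjusted p = 0.0302) or without CAST/Ei naive 2 (0.0396). Without C57BL/6 naive 4 and 5 it was 1.13 (adjusted p = 0.112). miR-370-3p had log2 changes of -0.61 in C57BL/6 and 0.76 in CAST/Ei, neither of which passed, with a difference of 1.37 ± 0.55 (unadjusted p = 0.0239, adjusted p = 0.529 by limma). Without naive libraries 4 and 5 its C57BL/6 change was -0.09 and the difference 0.85 (unadjusted p = 0.0241, adjusted p = 0.437 by limma). For miR-770-3p the changes were -0.34 and 0.94, also not called, with a difference of 1.28 ± 0.54 (unadjusted p = 0.0316, adjusted p = 0.529 by limma). Without those 2 libraries its C57BL/6 change turned to 0.06, and the difference was 0.88 (unadjusted p = 0.0682, adjusted p = 0.525 by limma).

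**Figure D4:**
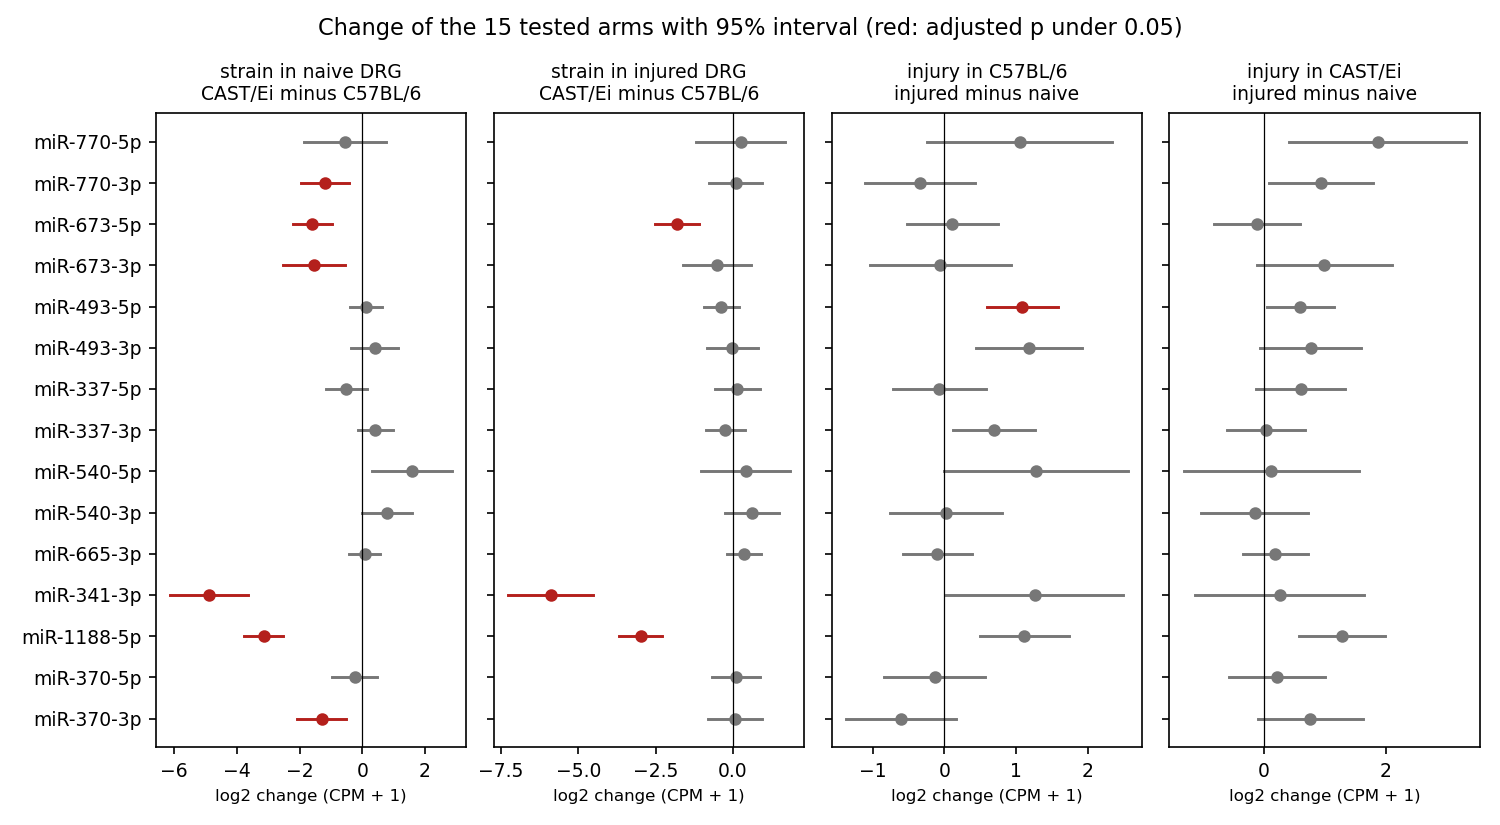
Log2 change on the log2(CPM + 1) scale with its 95% interval for the 15 tested arms in the 4 contrasts, in red where adjusted p was under 0.05. The strain panels have 6 (naive) and 3 (injured) red arms, all to the left of 0, and the injury panels 1 (C57BL/6, miR-493-5p) and 0 (CAST/Ei).

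In the neighbouring clusters the injury changes were led by miR-431-5p of the Rtl1 antisense cluster, which rose from 88.5 ± 15.1 to 285 ± 25.3 CPM in C57BL/6 (log2 change 1.69, adjusted p = 0.00283) and from 94.4 ± 36.9 to 340 ± 4.84 CPM in CAST/Ei (1.93, adjusted p = 0.00269). Of the 12 antisense arms 2 rose in C57BL/6 and 1 in CAST/Ei, beside 15 and 7 of all 638 miRNAs. Of the 64 arms from miR-379 to miR-410 3 rose in C57BL/6 and none was called in CAST/Ei. None of these arms was called lower, although in CAST/Ei every injured library lay below every naive one for 4 of the 12 and 3 of the 64 arms, beside the 16.5% of all miRNAs. The called increases of these clusters in C57BL/6 ran from 0.95 (miR-323-3p) to 1.69, a range that holds the 1.09 of miR-493-5p.

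The balance of the arms within a hairpin was compared as the ratio of 5p to 3p. It could be tested for 6 hairpins, and limma called none by strain or by injury, where 2.01% and 0.503% of 199 hairpins were called, with 18 and 17 at an unadjusted p under 0.05. The 5p arm made up most of miR-493, with 89.4% ± 5.05 of its reads (SD, n = 5) in naive and 89.5% ± 1.10 (n = 3) in injured C57BL/6, and 88.4% ± 1.49 and 87.0% ± 1.25 in CAST/Ei. Naive C57BL/6 libraries 1 to 3 alone gave 89.2% ± 2.62 (n = 3). The change of its log2 ratio with injury was -0.13 (95% interval -0.80 to 0.54). In miR-770 the 3p arm led, and the 5p share was 13.8% ± 15.3 in naive and 21.5% ± 3.07 in injured C57BL/6, 14.3% ± 8.77 and 23.6% ± 4.93 in CAST/Ei. For naive C57BL/6 libraries 1 to 3 alone this share was 21.0% ± 16.6 (n = 3), near that of the injured group. The change of this log2 ratio with injury was 1.16 (-0.04 to 2.36). The miR-1188 hairpin could be tested only without the filter on low values, where its ratio was called between the strains. Both arms were low in CAST/Ei (group means 0 to 1.46 CPM), so the added 1 CPM pulls the ratio there toward 0. This call cannot separate a change of balance from the lower level of miR-1188-5p. Naive CAST/Ei held 0 reads of 5p and 5 of 3p. In injured ganglia the 5p share was 95.4% ± 3.41 (n = 3) in C57BL/6 and 81.9% ± 13.4 (n = 3) in CAST/Ei.

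C57BL/6 naive libraries 4 and 5 differed from libraries 1 to 3 in several members, while the median over the 638 miRNAs was -0.06 on the log2 scale. miR-341-3p was lower in them by a log2 difference of -2.37, miR-540-5p by -1.90 and miR-770-5p by -1.62. miR-370-3p, miR-673-3p and miR-770-3p were higher, by 1.28, 1.11 and 0.998. miR-770-5p and miR-770-3p, arms of 1 hairpin, thus differed in opposite directions in these libraries. Without the 2 libraries 13 of the members were tested. Of these, 3 were lower in naive CAST/Ei (miR-341-3p, miR-1188-5p and miR-370-3p), where 14.2% of 627 miRNAs were called in either direction. After injury 3 were higher in C57BL/6 (miR-493-5p, miR-493-3p and miR-1188-5p), where 4.63% were called in either direction. In CAST/Ei 1 was higher after injury (miR-1188-5p), where 2.71% were called in either direction.

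Across the 14 libraries, the miRNAs with the pattern most like a member's were found by Pearson correlation of log2(CPM + 1) over all other tested miRNAs, as a description over libraries that share strain and state. For miR-341-3p they were miR-3061-5p (0.96), miR-3095-3p (0.95) and miR-467c-5p (0.94). miR-467c-5p averaged 26.9 CPM in naive and 32.7 CPM in injured C57BL/6, and 0.230 and 0.0674 CPM in CAST/Ei. For miR-673-5p the nearest was miR-3065-3p (0.96), at 256 and 254 CPM in C57BL/6 and 35.2 and 21.8 CPM in CAST/Ei. miR-1188-5p was most like miR-7688-5p (0.91), which had no read in CAST/Ei. miR-493-5p went with miR-381-3p (0.89), miR-431-5p (0.88) and miR-21a-5p (0.88), the last known for its rise in injured sensory neurons, here from 5722 to 18343 CPM in C57BL/6. Between members, miR-341-3p and miR-1188-5p correlated at 0.89 and miR-673-5p and miR-1188-5p at 0.90, whereas miR-540-5p and miR-370-3p correlated at -0.76.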

How the data were processed

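Per the labels' protocols, RNA from dissociated ganglia was extracted with the miRVana kit and made into libraries with the Ion Total RNA-Seq kit. Bowtie2 was used, per the submitters' processing notes; no source used here gives its version, the build, the miRNA release or a batch. The deposited signal, 1 value per miRNA and library, is called CPM in the file names. Library totals of 867581 to 1311857 show scaled library sizes, and factors computed with edgeR's TMM matched them within a relative difference of 1.04e-05. All values were whole multiples of 1 read within 1e-06 reads, so reads were recovered and also tested with edgeR 4.0.16 and DESeq2 1.42.0. The step of C57BL/6 injured library 1 was the least certain, so edgeR was also run without it. The design had assumed plain CPM, and the same test was kept.

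The main test was limma-trend (R 4.3.3, limma 3.58.1) on log2(CPM + 1), in 1 fit with a mean for each of 4 groups over 14 libraries. Of 1123 miRNAs, 638 reached 5 CPM in 3 or more libraries and were tested. Two-sided p-values were adjusted over these 638 with the Benjamini-Hochberg method (threshold 0.05). The added 1 CPM shrinks the log2 change of low miRNAs. Arm ratios used limma on log2 of (5p + 1) over (3p + 1). Scripts were tested on simulated data. There are no molecular identifiers, so 95% intervals of read ratios (exact) and the floor of 3 reads, 0.202 to 0.760 CPM per library, cover counting error only. No source used here ties equal replicate numbers of different groups to each other. In the naive strain comparison the deviations of the 3 same-numbered pairs correlated at 0.114, 0.104 and 0.108, each above 0.1. A pair of unlike numbers, C57BL/6 naive 3 and CAST/Ei naive 2, reached 0.129, so these values do not show pairing. The main fit took no libraries as pairs. A value with the block is given for miR-770-3p only, and the other arms whose calls it changed are named in the last section. In each of the other 3 comparisons between groups at least 1 same-numbered pair fell under 0.1. Libraries of a group are biological replicates per the series' design text.

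Every member is named. Of the rest of the domain at most the 3 arms with the largest called change per contrast are named, and for each called member the 3 miRNAs most like it were found, of which some are printed. The members, the lists of other clusters and cell types (from general knowledge) and the tests were chosen with earlier results of these data known.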

Additional observations from a re-analysis of the deposited data

How the results depend on the processing

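Over 25 or 26 alternatives per contrast (pseudocounts, filters, scalings, edgeR, DESeq2, only the groups compared, a replicate block, each library left out), 2541 of 2622 values for single arms kept their side of the threshold, 53 lost and 28 gained a call, no called value reversed, and 100 values of arms not called in that contrast changed sign. The strain calls of miR-341-3p and miR-1188-5p held in every alternative, and those of miR-673-5p in the 20 or 21 that tested it. miR-673-5p reached 5 CPM in only 3 libraries, all of C57BL/6, so settings that left out any of these did not test it. Its count is therefore a description and does not measure how stable the call is. In C57BL/6 after injury the 1 arm (20 of all 638 miRNAs) became 2 with a pseudocount of 5 (20), rescaling to plain CPM (16) and DESeq2 (79), 3 without naive libraries 4 and 5 (29 of 627), and 0 with only the groups compared (3) and with edgeR without injured library 1 (5). In CAST/Ei after injury the count of 0 (7 of all) became 1 with a pseudocount of 0.5 (8), rescaling without the 3 most abundant miRNAs (9 of 665), only the groups compared (9), edgeR with and without that library (8 and 6), DESeq2 (16), and without C57BL/6 naive libraries 4 and 5 (17 of 627). The 6 arms lower in naive CAST/Ei (71 of all called) became 3 with only the groups compared (21) and 3 without naive libraries 4 and 5 (89 of 627). The interaction count of 0 became 1 with edgeR and 1 with DESeq2, and the strain count of arm ratios went from 0 to 1 (miR-1188) without a filter. The cause of these shifts was not tested, except that fewer libraries or arms entered where they were left out.

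With each library left out in turn, the counts ranged from 0 to 2 for injury in C57BL/6, 0 to 1 for injury in CAST/Ei, 2 to 6 for strain in naive and 2 to 3 in injured ganglia, 2 to 3 for each averaged contrast, and 0 to 0 for the interaction and both arm ratio contrasts. The lower ends include settings in which a miR-673 arm fell below the filter. With the replicate number as a block, to which C57BL/6 naive 4 and 5 add no partner, 3 arms were called for injury in C57BL/6 (miR-493-3p and miR-1188-5p gained), 1 for injury in CAST/Ei (miR-1188-5p), 5 and 3 for strain in naive and injured ganglia, 3 and 4 for injury and strain averaged (miR-673-3p gained) and 0 for the interaction. Over all 638 miRNAs the block took the calls from 20 to 37, 7 to 21, 71 to 111, 21 to 36, 27 to 59, 51 to 121 and 0 to 0 in that order. Naive libraries 4 and 5 each take up a block term of their own, so the block fit gives them no weight. Leaving them out without a block gave 29, 17, 89, 32, 55, 97 and 0 calls of 627, so these shifts are not those of the block alone. The main fit took no same-numbered libraries as pairs. Deviations of 10 of 18 same-numbered pairs correlated above 0.1 (median 0.106, against -0.0406 for other pairs). Rescaling to plain CPM moved the median log2 change of all miRNAs by 0.25 for injury in CAST/Ei and 0.14 in C57BL/6. Depth limits miR-673-5p, miR-673-3p, miR-1188-5p and miR-1188-3p, whose CAST/Ei groups rest on 0 to 83 pooled reads.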
